A study of Rattus norvegicus with 47 samples.

Results

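The genes described here encode the receptors and regulators through which T cells receive costimulation or are held back: the costimulatory receptors Cd28, Icos, Cd27 and Tnfrsf4, the inhibitory receptors Ctla4 and Pdcd1, the transcription factor Foxp3, the interleukin-2 receptor chains Il2ra and Il2rb, and the coreceptor Cd4. They were chosen by name, as every probe set whose gene symbol in the authors' table is one of these 10 symbols. Of the 10 symbols, 8 were found, each with 1 probe set, among 27596 probe sets in all. Icos and Il2rb match no symbol of the table and were not analysed here. Where a symbol has several probe sets the rule takes the one with the highest mean, which did not arise here, and the genes were proposed with earlier results of these data known.

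The study followed blood gene expression in rats after an experimental ischemic stroke, made by occluding the middle cerebral artery (MCA). The 8 animals were male spontaneously hypertensive rats (SHR, an inbred strain with high blood pressure) aged 16 weeks, sampled at 0, 1, 2, 3, 6 and 24 h post MCA occlusion except for 1 rat with no 6 h sample, the first sample being drawn before anesthesia. The occlusion was by a thread that was later withdrawn, so that the samples from 2 h on followed reperfusion. The 6 h group has 7 arrays and every other group 8, which makes 47. All groups are of 1 strain and 1 sex, every rat was operated on, and no sham-operated rats were included. The effects of the stroke, anesthesia, surgery, stress and repeated bleeding therefore cannot be told apart. The tail vein was used until 6 h, whereas the 24 h sample was drawn by heart puncture after an anesthetic overdose. At 24 h the time, the site of sampling and the overdose therefore cannot be told apart. RNA was from the pelleted cells of whole blood, and in such bulk RNA fewer T cells and less RNA per T cell cannot be told apart.

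A T cell needs a pair of signals to be activated, 1 through its antigen receptor, helped by CD4 or CD8, and 1 through a costimulatory receptor such as CD28, which binds CD80 and CD86 on antigen-presenting cells. CTLA4 competes with CD28 for the same ligands and restrains the response, and PD-1, encoded by Pdcd1, does so through other ligands. CD27 and OX40, encoded by Tnfrsf4, belong to the tumor necrosis factor receptor family and sustain T cells after activation. Regulatory T cells, which are defined by FOXP3, carry much of the interleukin-2 receptor alpha chain (CD25, encoded by Il2ra) and of CTLA4.

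Values are the authors' means of the log2 RMA signal of a probe set over the arrays of a time point, with the deposited standard deviation (SD) over those arrays, and a change is the mean at a later time point minus that at 0 h. A change was called when limma's moderated test, rebuilt from these means and SDs, gave a false discovery rate (FDR) below 0.05 over all 27596 probe sets. All 5 comparisons with 0 h share the same 0 h samples. The authors' means lay between 2.29 and 13.6 on the log2 scale, and the median SD over all probe sets was between 0.14 and 0.16 at the 6 time points. All 8 genes had a mean over time above 5.63, the level that marks off the lowest 25% of probe sets. Ctla4, Tnfrsf4 and Pdcd1 had the lowest 0 h means of the 8 genes, at 6.58, 6.95 and 7.29. The median over all probe sets at 0 h was 6.61. Whether a low signal limited the size of the changes of these genes was not tested.

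The coreceptor gene Cd4 and the costimulatory receptor genes Cd28 and Cd27 fell within hours, Il2ra and Foxp3 fell less in size, and the other 3 genes moved little. By the F-test over the 6 time points, 7 of the 8 genes passed, all but Pdcd1, against 55.5% of all probe sets. At 6 h, Cd4, Cd28, Cd27, Il2ra and Foxp3 were lower than at 0 h, which makes 5 of 8 genes where 19.3% of all probe sets were called lower. Pdcd1 and Tnfrsf4 were called higher at that time, 2 of 8 genes where 22.5% of all probe sets were called higher, a share near that background, and Ctla4 was not called. The number of the 8 genes called lower was 4 at 1 h and 5 at each of 2, 3 and 24 h, against 15.4%, 18.6%, 19.2% and 13.9% of all probe sets. The number called higher was 1 at each of 1, 2 and 3 h and 0 at 24 h, against 21.7%, 21.7%, 27.3% and 17.4%. Quantile normalization of the means gave 2 genes lower at 1 h and 4 at 2 h, and 2 higher at 2 h and at 3 h. Centring the means at each time point on their median gave 0 genes higher at 1 h and at 2 h. It took the probe sets called higher from 5997 to 3465 at 1 h and from 4794 to 2749 at 24 h. In the order of sampling, the median change of the 8 genes was -0.13, -0.23, -0.32, -0.46 and -0.33, while that of all probe sets lay between 0.04 and 0.07.

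**Figure D1:**
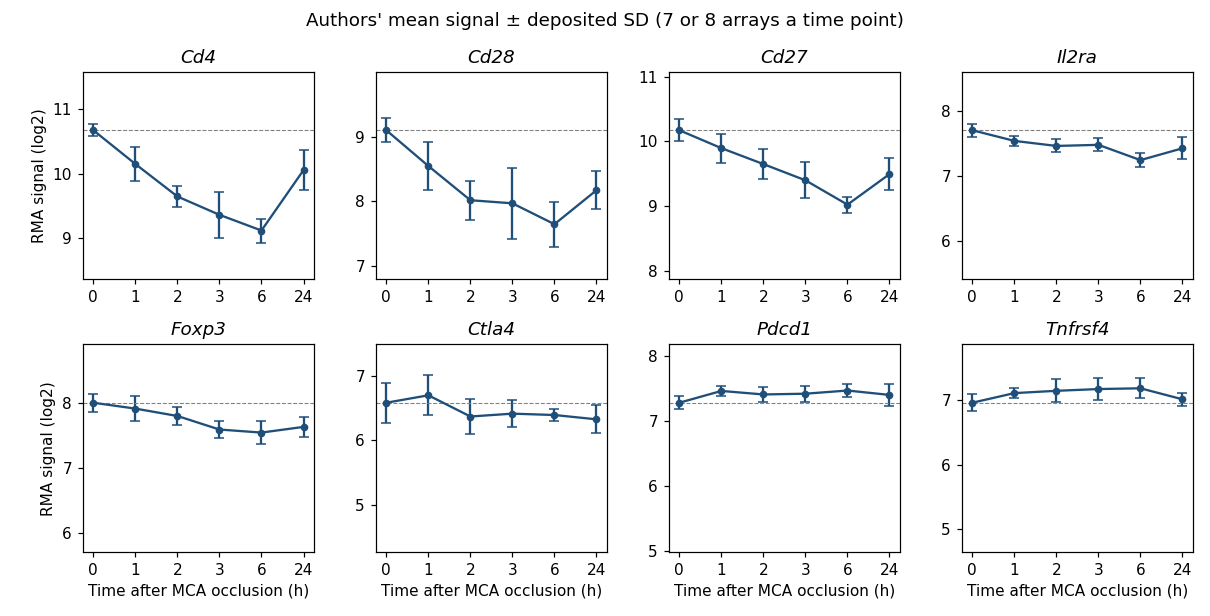
Mean log2 RMA signal of each of the 8 genes against time post MCA occlusion in h (time points evenly spaced, not to scale). Points are the authors' means over 8 arrays (7 at 6 h), bars are the deposited SD, the dashed line is the mean at 0 h, and all panels span the same number of log2 units. Cd4, Cd28 and Cd27 fell to their lowest level at 6 h and were higher again at 24 h, and the other 5 genes moved less.

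Cd4 encodes the coreceptor that helper T cells use to bind class II histocompatibility molecules, and in the rat it is also carried by monocytes. In the rn5 assembly its probe set spans chr4:224400830-224425954, minus strand. At 0, 1, 2, 3, 6 and 24 h, Cd4 had a mean log2 signal of 10.67, 10.15, 9.65, 9.36, 9.12 and 10.05, with SDs between 0.10 at 0 h and 0.35 at 3 h. The signal was thus lower at every later time point, was lowest at 6 h and had come part of the way back by 24 h. At 6 h Cd4 had fallen by 1.55 (95% confidence interval -1.79 to -1.30, FDR 7.78e-15), to 34.2% of its 0 h level on the linear scale. Of all probe sets, 38 fell further at 6 h. At 24 h the change from 0 h was -0.62 (FDR 7.94e-05), and the signal was 0.93 above that of 6 h (FDR 4.67e-08). In the order of its levels, 0 h stood above 1 h, 1 h and 24 h did not differ beyond their spread, 24 h stood above 2 h (FDR 0.0109, in a comparison where 8.7% of all probe sets were called higher), and 2, 3 and 6 h did not differ between neighbours.

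Cd28 encodes the main costimulatory receptor of T cells. Its probe set lies on the plus strand at chr9:67358994-67384458 (rn5), upstream of that of Ctla4 at chr9:67509842-67515369 on the same strand. Cd28 had mean log2 signals of 9.10, 8.55, 8.02, 7.97, 7.65 and 8.17 over the 6 time points in the same order, with SDs between 0.18 at 0 h and 0.55 at 3 h. Every later mean was lower than at 0 h, and the arrays of 3 h were the most spread. At 6 h Cd28 had fallen by 1.45 (95% confidence interval -1.80 to -1.09, FDR 2.92e-09), to 36.6% of its 0 h level, and 49 probe sets fell further. At 24 h the change was still -0.92 (FDR 4.78e-05), the lowest value among the 8 genes at that time, although the signal was 0.52 higher than at 6 h (FDR 0.0285). Of neighbouring levels in its order, only 0 h and 1 h differed beyond their spread.

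Ctla4, the inhibitory receptor that shares the ligands of CD28, was not called against 0 h at any time point. Its mean log2 signals from 0 h to 24 h were 6.58, 6.70, 6.37, 6.41, 6.39 and 6.33, with SDs between 0.10 and 0.31. Every difference from 0 h was smaller than the SD at 0 h, and the widest gap, from 1 h to 24 h, was -0.37 (FDR 0.0542). At 6 h its change was -0.19 (95% confidence interval -0.44 to 0.06, FDR 0.219) and at 24 h -0.26 (95% confidence interval -0.50 to -0.02, FDR 0.0969). A log2 change as large as that of Cd28 at the same times lies outside both intervals. Ctla4 started from 6.58 and Cd28 from 9.10, however. Whether a fall of the size of that of Cd28 could be seen at the lower signal was not tested. Its F-test over the 6 time points had an FDR of 0.0440, which became 0.0626 without moderation of the variance and 0.0746 without the 24 h samples.

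Because Cd28 and Ctla4 lie close together and the former was called lower at every time and the latter at none, and Cd27 is the most changed gene of another receptor family, the 250 bases before the start of their transcripts are shown, from RefSeq on the GRCr8 assembly. Cd28 is chr9:69660066-69660315 on the plus strand, Ctla4 is chr9:69813171-69813420 on the plus strand and Cd27 is chr4:159721824-159722073 on the minus strand, each printed 5′ to 3′ along its gene. Capitals mark short motifs of factor families active in T cells, searched on both strands: CTTTGA for TCF7/LEF1, TGTGGT for RUNX, TTCNNNGAA for STAT5, GGAAA for NFAT and TGTTTA for FOXO.
Cd28: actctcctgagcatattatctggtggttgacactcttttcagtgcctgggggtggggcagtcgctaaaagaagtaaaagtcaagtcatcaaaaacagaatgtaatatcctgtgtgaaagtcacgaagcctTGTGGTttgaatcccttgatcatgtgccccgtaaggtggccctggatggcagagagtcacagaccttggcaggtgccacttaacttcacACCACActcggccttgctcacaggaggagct
Ctla4: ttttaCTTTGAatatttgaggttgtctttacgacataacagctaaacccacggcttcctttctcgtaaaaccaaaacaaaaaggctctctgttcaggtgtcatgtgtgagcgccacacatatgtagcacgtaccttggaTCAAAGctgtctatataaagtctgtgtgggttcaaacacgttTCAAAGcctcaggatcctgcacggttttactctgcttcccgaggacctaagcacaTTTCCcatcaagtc
Cd27: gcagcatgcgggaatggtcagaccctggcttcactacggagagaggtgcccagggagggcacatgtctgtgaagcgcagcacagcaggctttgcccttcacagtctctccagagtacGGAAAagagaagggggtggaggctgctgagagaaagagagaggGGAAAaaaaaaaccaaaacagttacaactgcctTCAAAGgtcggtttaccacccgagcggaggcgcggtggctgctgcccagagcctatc
The Cd28 window holds the RUNX letters at -120 and -31, counted from the transcript start to the first base of the match, and none of the other letters. The Ctla4 window holds the TCF7/LEF1 letters at -245, -111 and -69 and the NFAT letters at -14. The Cd27 window holds the TCF7/LEF1 letters at -57 and the NFAT letters at -133 and -90. Over 33469 promoter windows of the same length, 13.9% hold the TCF7/LEF1 letters, 14.5% the RUNX letters, 7.67% the STAT5 letters, 56.9% the NFAT letters and 12.1% the FOXO letters, so the NFAT letters are in most windows. The motifs and windows were chosen after the values had been seen, and a match is a description of the sequence.

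Of the ligands of CD28 and CTLA4, Cd86 fell and Cd80 mostly did not pass the test. Cd86, which is carried by monocytes, B cells and dendritic cells, had changes of -0.59, -0.96, -1.05, -1.07 and -0.89 in the order of sampling, each called. Cd80 changed by between -0.37 and -0.16, of which only the 3 h value was called (FDR 0.0440), and its F-test had an FDR of 0.256. Icoslg, the ligand of the receptor encoded by Icos, was lower from 1 h to 6 h, by as much as -0.47 at 3 h (FDR 4.52e-06), and its change at 24 h was -0.03 (FDR 0.791).

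**Figure D2:**
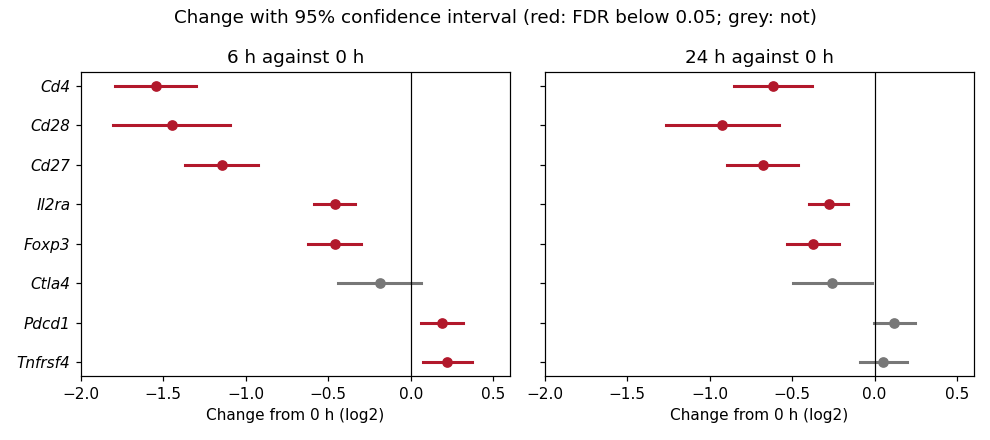
Change of each of the 8 genes from 0 h at 6 h (left) and 24 h (right), in log2 units, with bars for the 95% confidence interval of the moderated test (red, FDR below 0.05, and grey, not). At 6 h the changes ran from -1.55 for Cd4 to 0.22 for Tnfrsf4, and at 24 h the 5 lower genes were still called while Pdcd1 and Tnfrsf4 were not.

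Cd27 encodes a costimulatory receptor of resting T cells that is also found on NK cells and some B cells. Its probe set is on the minus strand at chr4:224761673-224766884 (rn5), on the same chromosome as Cd4. Over the 6 samplings Cd27 gave mean log2 signals of 10.17, 9.90, 9.65, 9.40, 9.03 and 9.50, with SDs between 0.12 at 6 h and 0.28 at 3 h. The means stepped down at each sampling to 6 h and then rose. At 6 h Cd27 had fallen by 1.15 (95% confidence interval -1.37 to -0.92, FDR 5.46e-12), to 45.2% of its 0 h level, and 171 probe sets fell further. The level at 24 h was 0.47 above that at 6 h (FDR 0.00128) with a change from 0 h of -0.68 (FDR 4.19e-06). The change at 1 h, -0.28 (FDR 0.0384), was not called after quantile normalization of the means (FDR 0.0897).

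Tnfrsf4, whose product OX40 appears on activated T cells, was higher rather than lower. Its probe set is on the plus strand at chr5:176921804-176924494 (rn5). The 6 mean log2 signals of Tnfrsf4, from 0 h to 24 h, were 6.95, 7.10, 7.14, 7.16, 7.18 and 7.01, with SDs between 0.08 and 0.18. The means differed from 0 h by at most 0.22. Tnfrsf4 was called at 2 h (0.18, FDR 0.0328), 3 h (0.21, FDR 0.0126) and 6 h (0.22, 95% confidence interval 0.08 to 0.37, FDR 0.0119), and its 24 h change was 0.05 (FDR 0.593). Its call at 2 h was lost after centring the means of all probe sets at each time point on their median (FDR 0.0797) and with the variance of 0 h and 2 h alone (FDR 0.0605), and that of its F-test (FDR 0.0277) was lost after centring (FDR 0.0596) and without the 24 h samples (FDR 0.0567). The ligands of this pair of receptors, Cd70 for CD27 and Tnfsf4 for OX40, were not called at any time, with changes of at most 0.14 for Cd70 and 0.16 for Tnfsf4.

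Pdcd1 encodes PD-1, which T cells carry after activation and which dampens their signalling. Its probe set is on the minus strand at chr9:100938083-100950184 (rn5). For Pdcd1 the mean log2 signals from 0 h to 24 h were 7.29, 7.47, 7.41, 7.43, 7.47 and 7.41, with SDs between 0.08 and 0.17. All later means were above 0 h, by at most 0.19. The change was called at 1 h (0.18, FDR 0.0173) and 6 h (0.19, 95% confidence interval 0.06 to 0.32, FDR 0.0147), and the F-test over the time points was not passed (FDR 0.0825). After centring, the 1 h change was 0.13 (FDR 0.0933), and after quantile normalization the F-test was passed (FDR 0.00951), as it was without the 24 h samples (FDR 0.0282). Of its ligands, Cd274 was lower at 1 h (-0.32, FDR 0.0433) and was not called later, and Pdcd1lg2 was not called at any time.

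Il2ra encodes the alpha chain that gives the interleukin-2 receptor its high affinity. Its probe set is on the minus strand at chr17:72204466-72250556 (rn5). Il2ra had log2 signals of 7.70, 7.54, 7.46, 7.48, 7.24 and 7.42 on average from 0 h to 24 h, with SDs between 0.08 and 0.17. The fall was smaller than that of Cd4, Cd28 or Cd27, but the arrays were less spread. At 6 h Il2ra had fallen by 0.46 (95% confidence interval -0.58 to -0.34, FDR 2.74e-08), to 72.7% of its 0 h level. It was called lower at every later time point, and the 24 h level was 0.18 above that at 6 h (FDR 0.0288), a step that was not called after quantile normalization (0.16, FDR 0.0676) or with the variance of those time points alone (FDR 0.124). The 1 h change of -0.16 (FDR 0.0261) was not called after quantile normalization (FDR 0.178).

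The gene for the common gamma chain that completes the receptor, Il2rg, was lower too, with changes of -1.01 at 6 h (FDR 6.44e-12) and -0.59 at 24 h (FDR 6.67e-06). This chain also serves the receptors of other cytokines and other leukocytes carry it. Il2 itself was higher at 2 h (0.21, FDR 0.00581) and 3 h (0.16, FDR 0.0324), but its F-test was not passed (FDR 0.0593). Of the 13 genes listed for interleukin-2 and related cytokine receptors, all in the table, 12 passed the F-test, against 55.5% of all probe sets. At 6 h 4 were lower and 2 higher, against 19.3% and 22.5%, with a median change of -0.10. The lowest after Il2rg was Il7r, the receptor of the survival cytokine interleukin-7, which was higher at 1 h (0.36, FDR 0.00991) and lower at 6 h (-0.90, FDR 1.45e-08). The highest was Stat5b, a transcription factor that these receptors activate, with 0.85 at 6 h (FDR 2.34e-10), followed by Cish, a feedback inhibitor and STAT5 target, with 0.43 at 3 h (FDR 1.20e-05) and -0.25 at 6 h (FDR 0.00843).

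Foxp3 is the transcription factor that defines regulatory T cells. Its probe set is on the minus strand at chrX:16546917-16560158 (rn5). In the same order, Foxp3 had mean log2 signals of 8.01, 7.92, 7.80, 7.59, 7.55 and 7.63, with SDs between 0.14 and 0.19. Most of the difference between 0 h and 6 h lay between 1 h and 3 h. Foxp3 had fallen by 0.41 at 3 h (FDR 2.39e-05), by 0.46 at 6 h (95% confidence interval -0.62 to -0.30, FDR 6.72e-06) and by 0.37 at 24 h (FDR 2.54e-04). At 6 h it stood at 72.7% of its 0 h level, as did Il2ra, and no pair of neighbouring levels in its order differed beyond the spread. Its change at 1 h was -0.09 (FDR 0.366), and that at 2 h, -0.20 (FDR 0.0311), was -0.09 (FDR 0.380) after quantile normalization.

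Of the other 24 genes listed for regulatory T cells, 23 were found and 18 passed the F-test, against 55.5% of all probe sets. At 6 h 8 were lower and 5 higher, against 19.3% and 22.5% of all probe sets, with a median change of -0.13 against 0.05. The largest falls were those of Nrp1, a semaphorin and growth factor receptor also on dendritic cells (-2.17 at 3 h, FDR 2.93e-22), and Nr4a1, an early-response gene of antigen receptor signalling that monocytes also express (-1.59 at 3 h, FDR 4.25e-14). The largest rises were those of Nt5e (1.46 at 2 h, FDR 7.33e-17) and Entpd1 (1.11 at 6 h, FDR 4.94e-14). These genes encode CD73 and CD39, enzymes that act in series to turn extracellular ATP into adenosine. CD39 is also carried by neutrophils, monocytes and B cells.

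**Figure D3:**
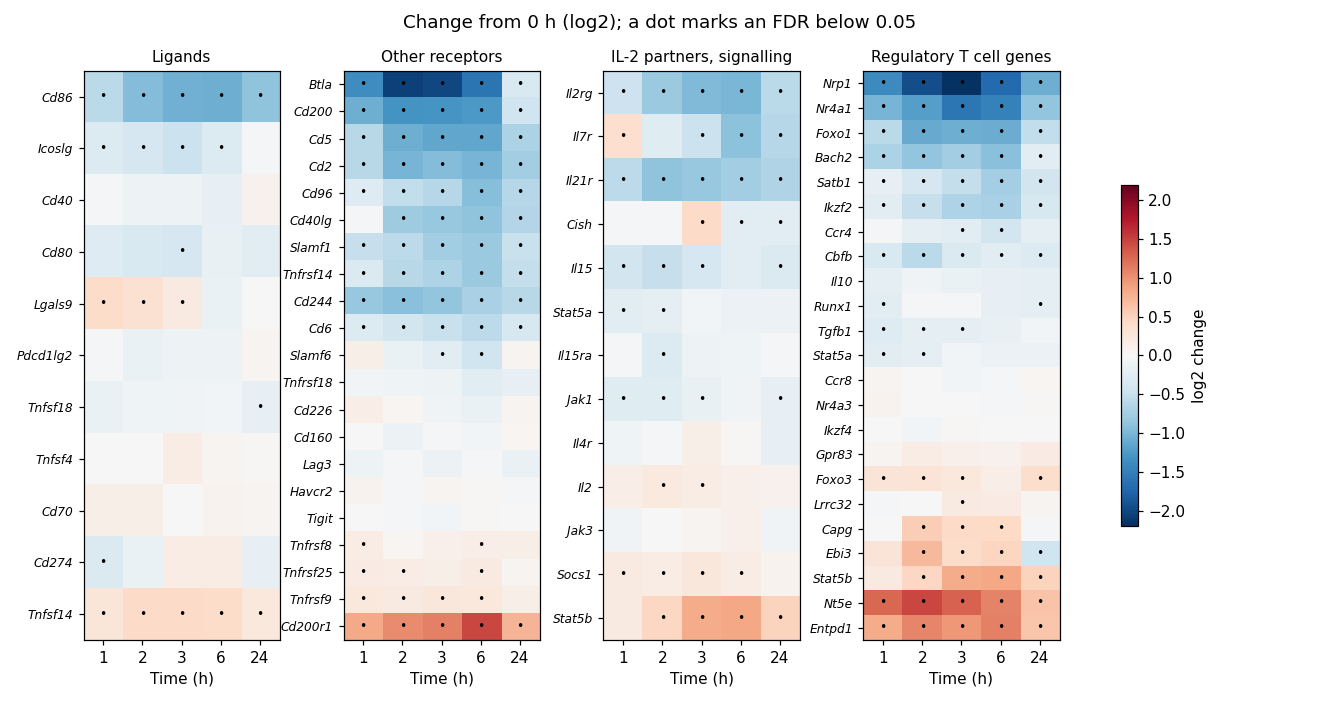
Change from 0 h in log2 units (colour scale from -2.2, blue, to 2.2, red) at 1, 2, 3, 6 and 24 h for the genes of 4 lists, 1 row a gene: ligands, other receptors of T cells, interleukin-2 receptor partners and signalling, and regulatory T cell genes. A dot marks an FDR below 0.05, and Btla and Nrp1 show the deepest falls, at -2.05 and -2.17, and Cd200r1 and Nt5e the strongest rises, at 1.48 and 1.46.

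Of the other receptors that tune T cells, more were lower than higher. Of 22 listed genes 21 were found, 15 passed the F-test, against 55.5% of all probe sets, and at 6 h 11 were lower and 4 higher, against 19.3% and 22.5%, with a median change of -0.43. Btla, an inhibitory receptor of B and T cells, was the lowest, with a change of -2.05 at 2 h (FDR 1.03e-17), and was back to a change of -0.34 at 24 h (FDR 0.0439). Cd200, which B cells and activated T cells carry, followed with -1.31 at 2 h (FDR 7.14e-17), while the gene for its receptor, Cd200r1, found mainly on myeloid cells, was the highest of the list at 1.48 at 6 h (FDR 3.36e-11). Tnfrsf9, which encodes the costimulatory receptor 4-1BB, was higher by 0.25 at 3 h (FDR 0.00130). Of 15 listed ligands of these and of the 8 genes, 11 were found and 5 passed the F-test, against 55.5% of all probe sets, and at 6 h 2 were lower and 1 higher, against 19.3% and 22.5%, with a median change of -0.11. After quantile normalization of the means, 4 ligands were lower and 2 of the other receptors were higher at 6 h. Tnfsf14, a ligand of the herpesvirus entry mediator, was the highest ligand at 0.43 at 2 h (FDR 4.91e-06), and Lgals9, which encodes galectin-9, was higher by 0.40 at 1 h (FDR 1.14e-05) and not called at 6 h.

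Among signalling genes that act below CD28 and the antigen receptor, too, more were lower than higher. Of 23 listed genes 22 were found, 21 passed the F-test, against 55.5% of all probe sets, and 15 were lower and 4 higher at 6 h, against 19.3% and 22.5%, with a median change of -0.31. Malt1, the protease of the complex that links these receptors to NF-kappaB, fell most (-1.29 at 2 h, FDR 2.49e-11). The largest rises were those of Ptpn11, a phosphatase used by PD-1 and many other receptors (0.43 at 24 h, FDR 1.99e-04), and Vav1, a guanine nucleotide exchange factor (0.41 at 6 h, FDR 2.10e-05).

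At 2 h Cd28 had reached 74.5% of its 6 h change and Cd4 66.0%, against 45.5% for Cd27, 52.6% for Il2ra and 44.4% for Foxp3. At 3 h the shares were 77.8% for Cd28, 84.3% for Cd4, 67.3% for Cd27, 48.9% for Il2ra and 89.8% for Foxp3. These shares come from means with no error of their own, and whether they differ between genes was not tested. From 1 h to 2 h Cd28 (-0.53, FDR 0.0410) and Cd4 (-0.50, FDR 0.00318) fell, 2 of 8 genes where 4.11% of all probe sets were called lower. From 2 h to 3 h no gene was called, against 3.53% of all probe sets, and 3 genes, Cd27, Foxp3 and Cd4, had an unadjusted p below 0.05 in limma's test. From 3 h to 6 h Cd27 (-0.38, FDR 0.0368) and Il2ra (-0.24, FDR 0.0155) fell, against 2.44%. The step of Cd28 had an FDR between 0.0504 and 0.0592 under 3 of the alternatives, and those of Cd27 and Il2ra from 3 h to 6 h were not called with the variance of both time points alone (FDR 0.0656 and 0.0563), nor was that of Cd27 after quantile normalization (FDR 0.0526). From 6 h to 24 h Cd28, Cd27, Il2ra and Cd4 rose, 4 of 8 genes against 10.2% of all probe sets, with the call of Il2ra lost under the 2 alternatives given above. Of the 6 h change, 39.8% was left at 24 h for Cd4, 59.0% for Cd27, 60.4% for Il2ra, 63.8% for Cd28 and 80.9% for Foxp3.

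Likeness of time courses was measured as the Euclidean distance between the 5 changes from 0 h, over the 6 time points. The changes were not scaled, so genes that both changed little are close whatever the shape of their courses. Among the 8 genes, Pdcd1 and Tnfrsf4 were closest (0.12), followed by Foxp3 and Il2ra (0.23) and by Cd28 and Cd4 (0.38). Of 20436 probe sets with 1 symbol, the nearest to Cd4 were Lbh (0.19), Camk2d (0.21) and Bcl2 (0.22), where Bcl2 encodes a survival factor of lymphocytes. The nearest to Cd28 were Cd69, an early activation marker of lymphocytes (0.12), Ccr7, the lymph node homing receptor (0.20), and Fcgr3a, an Fc receptor of NK cells and monocytes (0.20). Among the nearest to Cd27 were the class I histocompatibility gene RT1-N3 (0.17) and Tcf7, a transcription factor of T cells (0.20).

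Markers of T cells and of other blood cells moved over the same hours. All 18 listed T cell markers were in the table and all 18 were lower at 6 h, where 19.3% of all probe sets were, from -1.39 for Cd8b to -0.32 for Zap70, with a median change of -1.09, and Cd4, Cd28 and Cd27 had changes below this median while Il2ra, Foxp3, Ctla4, Pdcd1 and Tnfrsf4 were above it. On average over the 18 markers the log2 signal was 9.55, 9.14, 8.74, 8.69, 8.52 and 8.92 from 0 h to 24 h. Of these markers, 4 are also in the list of signalling genes and 3 in that of other receptors. Of 11 B cell markers 10 were lower at 6 h, with a median of -1.66, and the lowest was Ms4a1 at 2 h (-2.56). Of 12 NK cell markers 8 were lower and 2 higher, where 22.5% of all probe sets were called higher, with a median of -0.56. Of 12 neutrophil markers 11 were higher at 6 h, with a median of 1.65 and a mean log2 signal that went from 9.22 at 0 h to 10.96 at 6 h and 9.88 at 24 h. Of 11 monocyte markers found, 5 were lower and 4 higher at 6 h, with Adgre1 at -1.90 and Cd14 at 1.34, and their mean log2 signal stayed between 8.97 and 9.28. Erythroid and platelet markers had medians of -0.09 and 0.07 at 6 h. No marker is at 0, since RMA gives every probe set a signal. The part of these cell types in the changes of the 8 genes was not tested.

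**Figure D4:**
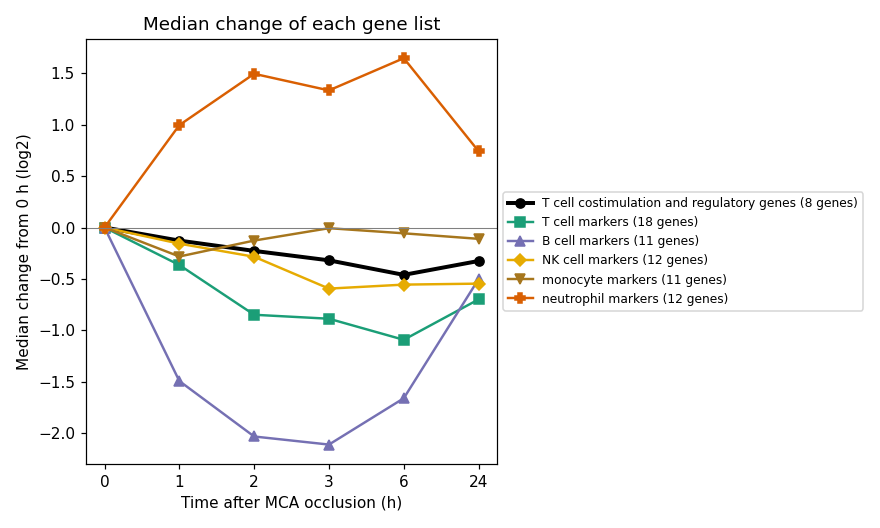
Median change from 0 h in log2 units against time post MCA occlusion in h (time points evenly spaced, not to scale) for the 8 genes (black) and 5 lists of cell type markers. At 6 h the median of the 8 genes was -0.46, between that of the T cell markers (-1.09) and 0, while neutrophil markers were at 1.65 and B cell markers at -1.66.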

How the data were processed

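Blood RNA of 8 rats at 6 time points was hybridized to Affymetrix RaGene 1.0 ST arrays. The authors deposited 1 table of log2 RMA signals for 27596 probe sets, background corrected, quantile normalized and summarized by RMA, as a mean and SD per time point, annotated on rn5. It also holds their fold changes, p-values and FDRs, which were not used, and 47 columns of single arrays, which were not used either. These are named by a running number that no label ties to a sample, and the order of the columns was not taken as such a key.

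With the numbers of arrays and the deposited means and SDs, limma's moderated F and contrast tests were rebuilt (limma 3.58.1, squeezeVar, R 4.3.3), with the variance pooled over the 6 time points (41 residual degrees of freedom, 5.71 prior), and Benjamini-Hochberg adjustment over all probe sets. limma is also named, with no version, in the submitters' processing notes. The design had planned array values, which were not fitted. Samples of 1 rat were taken as independent and the deposited averages as plain means, and p-values measure the spread between these arrays. The procedure was also run on simulated data, whose outcome is not given here and from which nothing is concluded. The number of arrays limits the precision, and probe sets close in sequence or overlapping other genes were not separated.

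A gene was represented by its probe set with the highest mean. The members and the 12 gene lists were chosen with earlier results of these data known. Named genes were the members, their ligands and partners, the largest rises and falls of each list past the F-test, the leading markers of each cell type, and the 3 nearest profiles of the 3 members with the lowest F-test p. The result of 1 gene that this rule names is not reported here. Promoter windows are RefSeq's (7 of the 8 genes matched), and motifs were searched in Python 3.11.15. Alternatives changed the variance, the prior, the scaling, the filter on low signals and the use of the 24 h samples.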

Additional observations from a re-analysis of the deposited data

How the results depend on the processing

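Of 480 results of single genes compared over 7 alternatives, 455 kept their direction and their side of the threshold, 18 lost the call, 5 gained it and 2 reversed. The calls of Cd4, Cd28 and Cd27 at 2, 3, 6 and 24 h, and those of Il2ra and Foxp3 at 3, 6 and 24 h, held under each alternative run. Centring on the median of all probe sets at each time point gave 0 of the 8 genes higher at 1 h and at 2 h, 1 gene lower from 1 h to 2 h and 1 gene of the interleukin-2 list higher at 6 h, with 3465 probe sets higher at 1 h and 2749 at 24 h. It moved the share of higher calls from 58.6% to 40.0% at 1 h, from 53.9% to 44.2% at 2 h, from 58.7% to 47.2% at 3 h, from 53.8% to 44.6% at 6 h, from 55.6% to 37.3% at 24 h and from 53.1% to 64.4% for 1 h to 2 h. Quantile normalization of the means gave 2 genes lower at 1 h, 2 higher at 2 h and 2 higher at 3 h, and for the steps 1 lower from 1 h to 2 h, 1 lower from 3 h to 6 h and 1 lower from 6 h to 24 h. At 6 h it gave 4 ligands lower, 2 other receptors higher and 1 erythroid marker lower, and it turned the sign of Foxp3 at 1 h (0.0038) and of Pdcd1 from 2 h to 3 h (-7.46e-05), neither called. Without moderation 1 gene was lower from 1 h to 2 h. With the variance of the time points compared only, 0 genes were higher at 2 h and 0 lower from 3 h to 6 h, where 341 probe sets were lower and 396 higher. The cause of these differences was not tested. No paired analysis was possible because the columns of single arrays carry only a running number that no label ties to a rat, and a match by their order was not made, so each rat's own time course was not analysed here. Other probe sets could not be tried, since each gene has 1. Signal over background was not assessed, and the 7 or 8 arrays a time point set the precision.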
